A study of Mus musculus with 5 samples.

Results

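The alpha-arrestins are a small family of adaptor proteins that link membrane proteins to ubiquitin ligases. The 5 genes described here, Arrdc1, Arrdc2, Arrdc3, Arrdc4 and Txnip, were taken by symbol from the normalised expression table, and all 5 were found among its 38918 features. They were chosen by family membership with the maternal diet comparison in view: Arrdc3 was selected on its higher values in the tumours of offspring of broccoli sprout-fed dams. Their differences between the diet groups are therefore given as a description, with no test. RNA was sequenced from mammary tumours of untreated FVB mice that carry an SV40 transgene, taken at 20 weeks of age. The dams had eaten a control diet (2 libraries, called control) or a diet with 26% broccoli sprouts, abbreviated BSp (3 libraries, called maternal BSp), from conception until their pups were weaned. Both groups carry the transgene, and the labels name neither its promoter nor separate litters. They do not say outright that each library is a separate animal, so the spread between libraries may be partly technical.

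Alpha-arrestins carry an arrestin fold like that of the beta-arrestins, followed in most members by a tail with PPxY motifs. These motifs bind the WW domains of NEDD4-family ubiquitin ligases, so the adaptor brings a ligase to a receptor, transporter or integrin that is then taken into the cell and degraded. Arrdc3 is known as a suppressor of invasive growth in human breast cancer cells, where it promotes the ubiquitination and lysosomal degradation of integrin beta 4. Txnip, the thioredoxin-interacting protein, binds reduced thioredoxin and promotes the internalisation of glucose transporters. Arrdc4 is its closest relative, and both genes are classical targets of MondoA, a transcription factor that responds to glucose phosphates through carbohydrate response elements. Arrdc1 sits at the plasma membrane and recruits the ESCRT protein Tsg101 to bud microvesicles, while Arrdc2 is less well described.

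The proximal promoters of Txnip, Arrdc4 and Arrdc3 are shown because they belong to the most even and the 2 least even of the 4 tested members within the diet groups. Each line gives the 250 bases before the annotated start, 5' to 3' on the strand of the gene, from RefSeq on GRCm38.p6, the C57BL/6J reference and not the FVB genome. All 5 genes had a window in that set of 32851, and Arrdc3 had 3, of which the first is shown. Capitals in Txnip (chr3:96557707-96557956, plus strand) mark a pair of CACGNG boxes 5 bases apart, with the bases between them, then GTAAACA, a core bound by FOXO factors, and CCAAT boxes. Capitals in Arrdc4 (chr7:68749239-68749488, minus strand) mark CACGTG and CCAAT boxes, and in Arrdc3 (chr13:80883134-80883383, plus strand) a CCAAT box. A box may be in capitals as its reverse complement, since both strands were searched.
Txnip: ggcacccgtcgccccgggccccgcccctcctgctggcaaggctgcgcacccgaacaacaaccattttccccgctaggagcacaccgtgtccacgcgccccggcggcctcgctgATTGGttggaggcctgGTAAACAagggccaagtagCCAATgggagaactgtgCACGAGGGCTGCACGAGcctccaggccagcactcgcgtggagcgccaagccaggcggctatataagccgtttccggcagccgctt
Arrdc4: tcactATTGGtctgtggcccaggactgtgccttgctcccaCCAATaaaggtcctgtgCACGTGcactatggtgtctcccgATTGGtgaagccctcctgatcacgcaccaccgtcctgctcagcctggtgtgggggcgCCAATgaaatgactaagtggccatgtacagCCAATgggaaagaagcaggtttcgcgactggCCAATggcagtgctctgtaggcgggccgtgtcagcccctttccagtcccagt
Arrdc3: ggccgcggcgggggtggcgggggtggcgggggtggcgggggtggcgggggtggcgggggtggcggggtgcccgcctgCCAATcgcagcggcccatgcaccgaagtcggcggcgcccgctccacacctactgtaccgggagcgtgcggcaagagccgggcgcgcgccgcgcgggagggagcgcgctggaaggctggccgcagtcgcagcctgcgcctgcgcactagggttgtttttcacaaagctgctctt

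The pair of CACGNG boxes is the form of a carbohydrate response element. Among the 5 genes only the Txnip window held it, from 85 to 69 bases before the start, and 0.0487% of all windows (16 of 32851, each with the 250 bases before and 50 after a start) did so. Single CACGNG boxes overlap this pair and were common, at 27.5% of windows and in every gene of the family but Arrdc3. Arrdc4 held CACGTG, from 193 to 188 bases before its start, a sequence present in 7.15% of windows. CCAAT occurred in 37.4% of windows and in 4 of the 5 genes, all but Arrdc1. The Arrdc4 window had 6 such boxes, and 0.0791% of windows (26) had at least as many. GTAAACA was found in 3.65% of windows and among these genes in that of Txnip. TGACNNNGC, an antioxidant response element core, lay in the Arrdc4 window and in 12.4% of all. The glucocorticoid receptor half-site AGAACA (19.0% of windows) and TATAAA (13.6%) were in none of the 7 windows of the family, whereas the GC box GGGCGG (35.7%) was in a window of every member but Arrdc4. Only the exact letters TATAAA were searched, so near forms such as tatataag in the Txnip window were not counted. The Arrdc3 promoter shown was rich in GC, at 76.0% against 66.8% for Txnip, 58.0% for Arrdc4 and a median of 52.4% over all windows. These matches describe letters in a window and not sites in use.

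Depth differed widely between libraries. Recovered totals were 1106813 and 3909583 reads in control 1 and 2 and ran from 8459029 to 61663199 in maternal BSp, a 55.7-fold range with both controls below every maternal BSp library. Values below are normalised reads, scaled by the authors so that each library sums to 1106813, the total of control 1. A gene with a count of 0 could still have a true count of up to 3 reads, worth a value of 3 in control 1 and of 0.0538 in maternal BSp 2. Mitochondrial RNA was 2.41% to 2.58% of reads in both controls and maternal BSp 2, but 11.6% and 9.03% in maternal BSp 1 and 3. Lars2 and Gm26917 together took 9.40% and 4.09% of control reads and at most 1.13% in maternal BSp. Luminal epithelial markers summed to 5018 to 6527 in every library. Basal and myoepithelial markers summed to 3183 and 2066 in the controls, and to 1418, 1596 and 260 in maternal BSp 1, 2 and 3. Krt14 and Krt17 had the highest values among them in every library, and single markers did not all follow the sum. Trp63 was highest in maternal BSp 2, at 103 against 79 and 66.5 in the controls. Of the 8 markers, 2 had a higher mean in maternal BSp, Myh11 and Oxtr, both at most 3.27 in any library. Salivary gland markers summed to 323 in control 1 and 813 in maternal BSp 1, and to 24.3 or less in the others, and their part in the results was not tested. In bulk tumour RNA, fewer cells of a type and less RNA per cell cannot be told apart.

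Across all genes, limma on log2(value + 1) called 0 of 9870 tested genes at an adjusted p under 0.05 (0%), with a smallest adjusted p of 0.407 and 1101 genes at an unadjusted p under 0.05. On the same reads edgeR called 0, with 971 at an unadjusted p under 0.05, and DESeq2 called 100. The median gene was 0.21 higher in maternal BSp on the log2 scale, a shift that shrank to 0.003 with median of ratios scaling. Of the 5 alpha-arrestins, 2 had every maternal BSp library above both controls, 0 had every one below, and 3 had overlapping groups. Among all tested genes the groups did not overlap for 33.0%, with 23.8% higher and 9.21% lower in maternal BSp. That direction depends on the scaling, since 1532 of 3101 such genes were higher with median of ratios and 1670 of 3140 with TMM, against 2348 of 3257 as deposited. Since the members were chosen with this contrast known, nothing is read from their count against that background. Of the 5, 4 passed the filter of a mean of at least 10, and Arrdc2, with a mean of 7.32, did not.

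**Figure D1:**
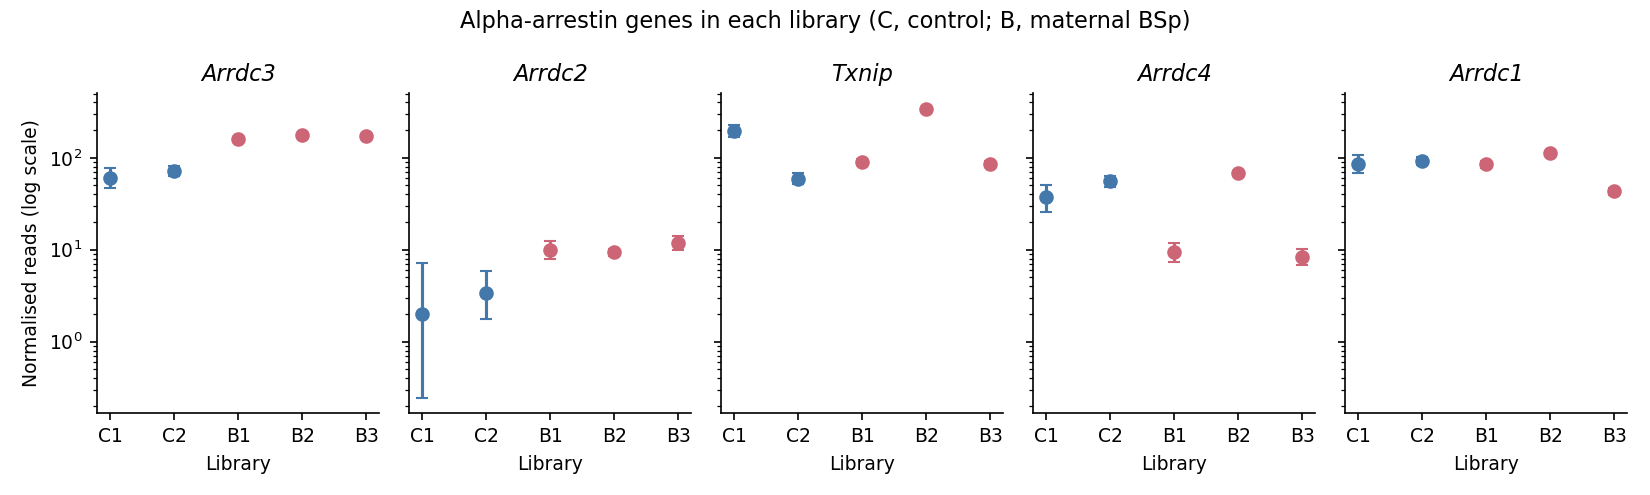
Normalised reads of the 5 alpha-arrestin genes in each library on a log scale, with exact 95% Poisson intervals that cover counting error only. Arrdc3 and Arrdc2 lay higher in all 3 maternal BSp libraries (B1 to B3) than in both controls (C1, C2). Every member but Arrdc2 was highest in B2, as were 45.8% of all tested genes.

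Arrdc3, at chr13:80883384-80896042 on the plus strand (ENSMUSG00000074794.10, GRCm38), was measured at 61 and 71.6 in control 1 and 2, and at 159, 178 and 173 in maternal BSp 1, 2 and 3. These values rest on 61, 253, 1218, 9899 and 2152 reads. The 3 maternal BSp tumours lay close together and above the 2 controls, so the groups did not overlap. Counting error alone put control 1, the shallowest, between 46.7 and 78.4 (exact 95% Poisson interval). Group means were 66.3 ± 7.51 (SD, n = 2) and 170 ± 9.46 (SD, n = 3), a log2 difference of 1.35 (SE 0.32). The groups also stayed apart with upper quartile, median of ratios and TMM scaling. The log2 difference was between 1.14 and 1.21 with these and with quantile scaling.

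Arrdc3 was also even within each group. Its pooled within-group SD was 0.11 on the log2 scale, against a median of 0.46 over all tested genes, and 2.02% of genes had a smaller one. The counting interval of control 1 (46.7 to 78.4) took in control 2 (71.6), so a spread this small lies within counting error in the controls. Txnip and Arrdc4, by contrast, had within-group SDs of 1.15 and 1.35, with 93.8% and 96.2% of genes below them. The Arrdc3 transcript was low in GC, at 40.6%. Genes of its GC decile, the lowest, had a median log2 difference of 0.53, and genes of its length decile had one of 0.35. With the trends over length and GC removed, an alternative chosen after seeing the data, the Arrdc3 difference was 0.91. The non-coding gene 1700023H06Rik lies on the opposite strand within Arrdc3, and the counting strand is not given. It held 0.0179 in maternal BSp 2, the value of 1 read, and 0 in the others. The depth of the libraries and the maternal diet cannot be told apart for this gene, as both controls were the shallowest libraries.

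Arrdc2 (chr8:70835129-70839720, minus strand, ENSMUSG00000002910.11) was the least abundant member. It was measured at 2 and 3.40 in control 1 and 2, and at 9.94, 9.41 and 11.9 in maternal BSp 1, 2 and 3. The order of the groups was that of Arrdc3, with no overlap under any of the same scalings, but the controls held only 2 and 12 reads. The exact interval of control 1 ran from 0.242 to 7.22, for counting error only. Means were 2.70 ± 0.988 (SD, n = 2) and 10.4 ± 1.30 (SD, n = 3). Over the summed reads of each group the ratio of Arrdc2 per total was 3.19, with an exact 95% counting interval from 1.89 to 5.87. This interval leaves out the spread between libraries, and 524 of the 748 maternal BSp reads came from maternal BSp 2. Arrdc2 and Arrdc3 are the only members in the authors' deposited table of selected genes. It gives the same group means, 10.4 and 2.70 for Arrdc2 and 170 and 66.3 for Arrdc3. These are means of the same libraries, so the listing is no separate observation. That table has 2447 rows, against 38918 features in the normalised table, and 1739 of the rows carry a p-value for this contrast.

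Txnip, at chr3:96557957-96561883 on the plus strand (ENSMUSG00000038393.14), gave a different picture. It was measured at 196 and 59.2 in control 1 and 2, and at 90.3, 343 and 86.6 in maternal BSp 1, 2 and 3, from 196, 209, 690, 19104 and 1079 reads. Maternal BSp 2 was the highest, control 1 came next, and the other 3 tumours lay between 59.2 and 90.3, so the groups overlapped. Fibroblast markers were also highest in these 2 libraries, with sums of 1076 in control 1 and 1070 in maternal BSp 2 against 317 (control 2), 734 (maternal BSp 1) and 297 (maternal BSp 3). Macrophage markers summed to 903 in maternal BSp 2 and to between 374 and 461 in the others, and skeletal muscle markers to 28.7 and at most 16. Single markers did not all follow these sums. Lyz2 alone gave 629 of the macrophage sum in maternal BSp 2, while Csf1r was nearly level between control 1 (94) and maternal BSp 2 (98). Cd14 was highest in maternal BSp 3, at 206.5. The muscle marker Mylpf was at 5 in control 1 and 1.47 in maternal BSp 2. The fibroblast marker Pdgfra was lower in control 1 (27) than in maternal BSp 1 and 3. The part of these cell types in the result was not tested. The highest library exceeded the lowest 5.80-fold, and the counting intervals of control 1 (170 to 225) and control 2 (51.4 to 67.8) lay far apart. Means were 128 ± 96.8 (SD, n = 2) and 173 ± 147 (SD, n = 3), with a log2 difference of 0.36 (SE 0.71). That difference was -0.28 without maternal BSp 2, -0.49 without control 2, 1.22 without control 1 and -0.09 with array weights, so no direction by diet is given for Txnip. The antisense gene Gm15441, which overlaps Txnip, was at most 1.13 in any library.

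Arrdc4, at chr7:68736995-68749241 on the minus strand (ENSMUSG00000042659.15), shared the high value in maternal BSp 2. It was measured at 37 and 55.5 in control 1 and 2, and at 9.42, 69.0 and 8.34 in maternal BSp 1, 2 and 3, from 37, 196, 72, 3846 and 104 reads. Maternal BSp 1 and 3 were several-fold below both controls, maternal BSp 2 was above them, and the range over libraries was 8.27-fold. Means were 46.2 ± 13.1 (SD, n = 2) and 28.9 ± 34.7 (SD, n = 3), with a log2 difference of -1.29 (SE 0.83). It was -2.23 without maternal BSp 2 and -0.78 without maternal BSp 3. The 2 libraries with low Arrdc4 were those with the high mitochondrial share (11.6% and 9.03%), and the part of that share in the result was not tested.

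Arrdc1, at chr2:24925352-24935252 on the minus strand (ENSMUSG00000026972.15), was the most even member in the controls. It was measured at 86 and 92.3 there and at 84.7, 113 and 43.3 in maternal BSp 1, 2 and 3. Only maternal BSp 3 stood clearly lower, and the groups overlapped. Means were 89.1 ± 4.45 (SD, n = 2) and 80.3 ± 35.0 (SD, n = 3), with a log2 difference of -0.25 (SE 0.44), which was 0.13 without maternal BSp 3. With median of ratios and TMM scaling every maternal BSp library lay below both controls, so the overlap depends on the scaling. Arrdc5, the remaining mouse alpha-arrestin and not among the 5, had 0 reads in all 5 libraries.

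**Figure D2:**
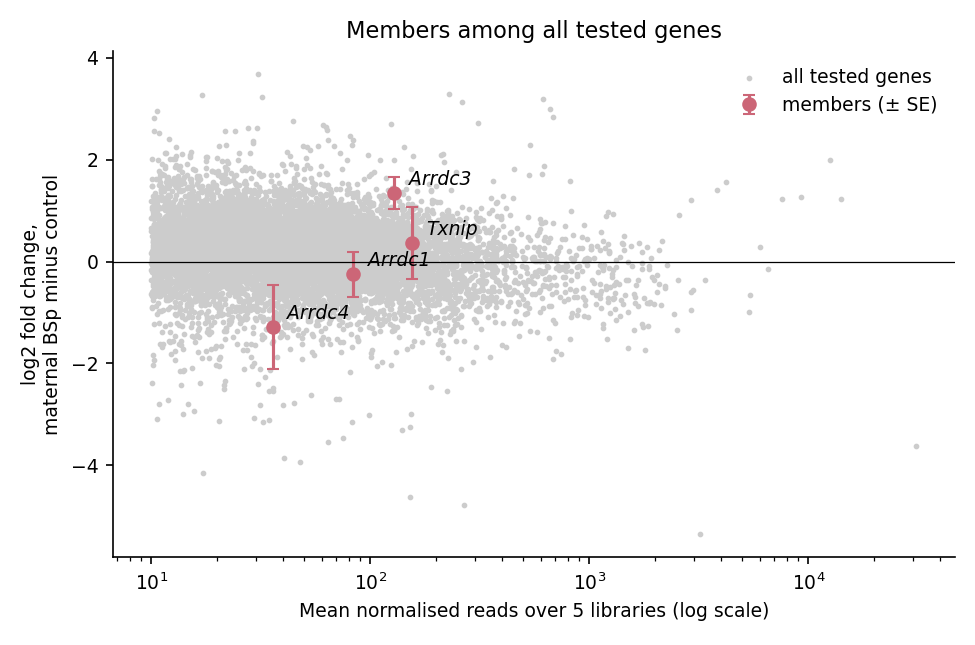
Log2 fold change (maternal BSp minus control) against mean normalised reads on a log scale, for 9870 tested genes in grey and the 4 members that passed the filter in red with their SE. Arrdc3 is at 1.35, Txnip at 0.36, Arrdc1 at -0.25 and Arrdc4 at -1.29.

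Ratios between members of one library do not depend on how libraries are scaled, but trends with transcript length and GC can still enter them. Arrdc3 to Arrdc1 was 0.709 and 0.776 in control 1 and 2, and 1.88, 1.57 and 3.99 in maternal BSp 1, 2 and 3. Thus Arrdc1 gave more reads than Arrdc3 in both controls and fewer in all 3 maternal BSp tumours, and the log2 ratios differed by 1.62. With the trends over length and GC removed, the log2 difference between the diet groups was 0.91 for Arrdc3 and -0.02 for Arrdc1. Arrdc3 to Arrdc4 was 1.65 and 1.29 in control 1 and 2, and 16.9, 2.57 and 20.7 in maternal BSp 1, 2 and 3. These values again did not overlap, with a log2 difference of 2.73. However, the counting intervals of control 1 (1.08 to 2.55) and maternal BSp 2 (2.48 to 2.67) did overlap. The large ratios were those of maternal BSp 1 and 3, where Arrdc4 was low. Arrdc3 to Txnip overlapped, at 0.311 and 1.21 against 1.77, 0.518 and 1.99. Arrdc4 to Txnip was 0.189 and 0.938 in control 1 and 2, and 0.104, 0.201 and 0.0964 in maternal BSp. So the glucose-responsive pair did not keep one ratio: in control 2 the reads of both genes were nearly equal, while in the other 4 tumours Txnip had about 5 to 10 times as many.

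**Figure D3:**
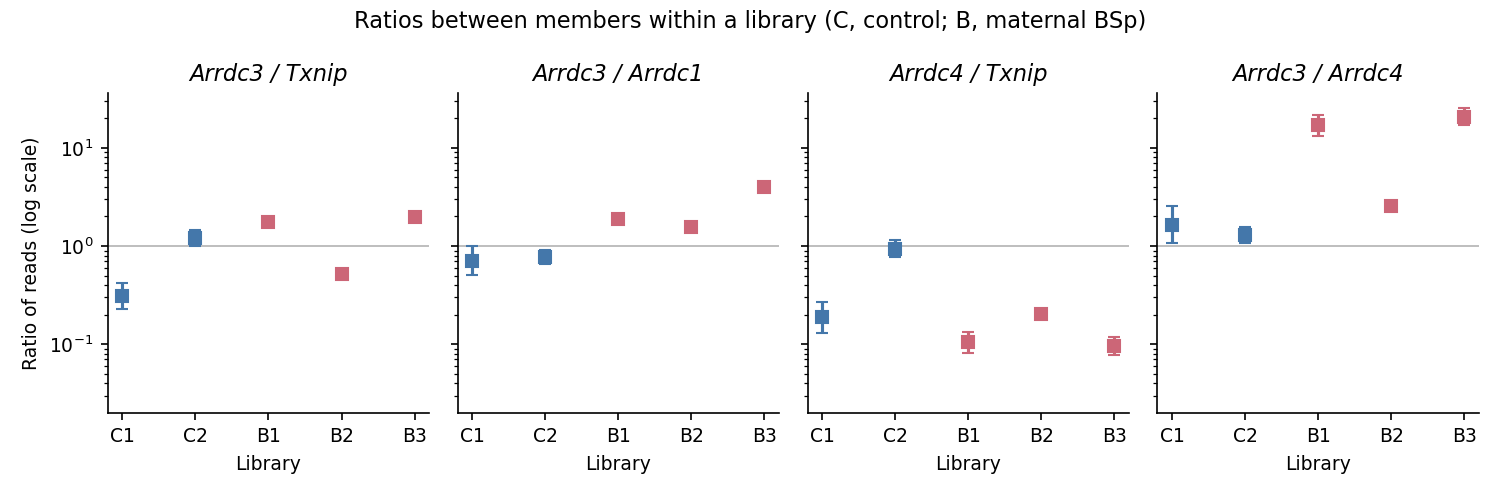
Ratio of reads between members within each library on a log scale, with exact 95% binomial intervals for counting error and a grey line at 1. Arrdc3 to Arrdc1 and Arrdc3 to Arrdc4 are higher in B1 to B3 than in C1 and C2, whereas Arrdc3 to Txnip overlaps. For Arrdc3 to Arrdc4 the intervals of C1 and B2 overlap.

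Levels were compared between genes per kilobase of exon. Txnip ranged from 18.9 to 110 normalised reads per kilobase over the 5 libraries and Arrdc1 from 17.3 to 45.0. Arrdc3 ranged from 9.74 to 28.4, Arrdc4 from 2.07 to 17.1 and Arrdc2 from 0.619 to 3.67. Neighbours in this order overlapped over the libraries, while Arrdc2 lay below the whole range of Arrdc3, Arrdc1 and Txnip. Txnip was first in control 1 and maternal BSp 2 and 3, and Arrdc1 in control 2 and maternal BSp 1. Txnip was above Arrdc3 in 5 of 5 libraries. Over the longest transcript in place of all exons it was so in 3 of 5, and Arrdc3 was first in maternal BSp 3, at 41.8 per kilobase against 30.6 for Txnip, since the union of Arrdc3 exons (6266 bases) is longer than its longest transcript (4132). Arrdc3 made up 45.1% and 53.5% of the summed reads of the family in maternal BSp 1 and 3, but 25.0% in maternal BSp 2, where Txnip took 48.2%. In control 1 and 2 the share of Arrdc3 was 16.0% and 25.4%.

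The genes whose pattern over the 5 libraries lay nearest to that of Arrdc3 were Ccnl2, Ap3s1, Serinc1, Tmed9 and Col4a5. Likeness was the root mean square difference of centred log2 values over 5 libraries among 2220 genes with a mean of at least 100, and it was 0.14 to 0.18 for these 5. Ccnl2, cyclin L2, was measured at 62 and 86.3 in control 1 and 2, and 200, 193 and 165 in maternal BSp. Ap3s1, a subunit of the AP-3 adaptor of endosomal sorting, was at 73 and 88.9 against 180, 173 and 166. These genes were picked for their likeness, so their shared pattern is no separate observation. The genes nearest to Txnip were less alike, at 0.27 to 0.38: Celsr2, Lrp1, Cic, Fat1 and Dsp. Lrp1, a large endocytic receptor, was measured at 259 and 86.9 in control 1 and 2, and 103, 279 and 94.1 in maternal BSp.

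Among the NEDD4-family ligases and adaptors, the enzymes that alpha-arrestins recruit, 9 of 11 listed genes were tested. None passed at an adjusted p under 0.05 with limma, 4 had an unadjusted p under 0.05 and all 4 were higher in maternal BSp. Of all 9870 tested genes 1101 had such a p, 791 higher and 310 lower. The groups lay apart and higher for 5 of the 9, and for 23.8% of all tested genes, as deposited. Wwp1 was among these 5, but its groups overlapped with median of ratios and TMM scaling. The median log2 difference of the list was 0.85, beside 0.21 for all tested genes. Nedd4, the founding ligase, was measured at 246 and 228 in control 1 and 2, and at 507, 820 and 431 in maternal BSp 1, 2 and 3. All 3 maternal BSp values were above both controls, with a log2 difference of 1.25 (SE 0.39). Itch, a ligase known to ubiquitinate Txnip, was at 25.7 ± 1.88 (SD, n = 2) and 55.2 ± 17.7 (SD, n = 3), also without overlap, and Nedd4l at 46.4 ± 2.01 and 117 ± 59.2. Wwp2, a ligase that Arrdc1 binds, was at 794 and 478 against 735, 533 and 338, and overlapped. In maternal BSp 2, the deepest library, 8 of these 9 genes had their highest value (88.9%), as did 45.8% of all tested genes. Every alpha-arrestin but Arrdc2 was also highest in that library. Without it 7 of 9 were higher and the median of the list was 0.53, beside 0.08 for all tested genes.

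The ESCRT and microvesicle list, the machinery that Arrdc1 engages, had 8 of 15 tested genes higher in maternal BSp and 7 lower as deposited, with a median of 0.00 beside 0.21 for all tested genes. None passed. The median was -0.13 with upper quartile scaling (6 higher), -0.21 with median of ratios scaling (4 higher) and -0.19 without maternal BSp 2 (4 higher). Tsg101, the ESCRT-I subunit bound by Arrdc1, was measured at 119 and 131 in control 1 and 2, and 95.6, 154 and 118 in maternal BSp. Its groups overlapped as deposited, but with upper quartile, median of ratios and TMM scaling every maternal BSp value was below both controls. Of the other arrestin-fold genes 4 were tested and 0 passed, with 4 higher as deposited and 3 under the other scalings. Arrb1 and Arrb2, the beta-arrestins of receptor desensitisation, overlapped between groups. Vps26a, a retromer subunit with an arrestin fold, was at 36 and 40.2 in control 1 and 2, and 106, 86.9 and 64.7 in maternal BSp, with no overlap and a log2 difference of 1.13 (SE 0.35).

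**Figure D4:**
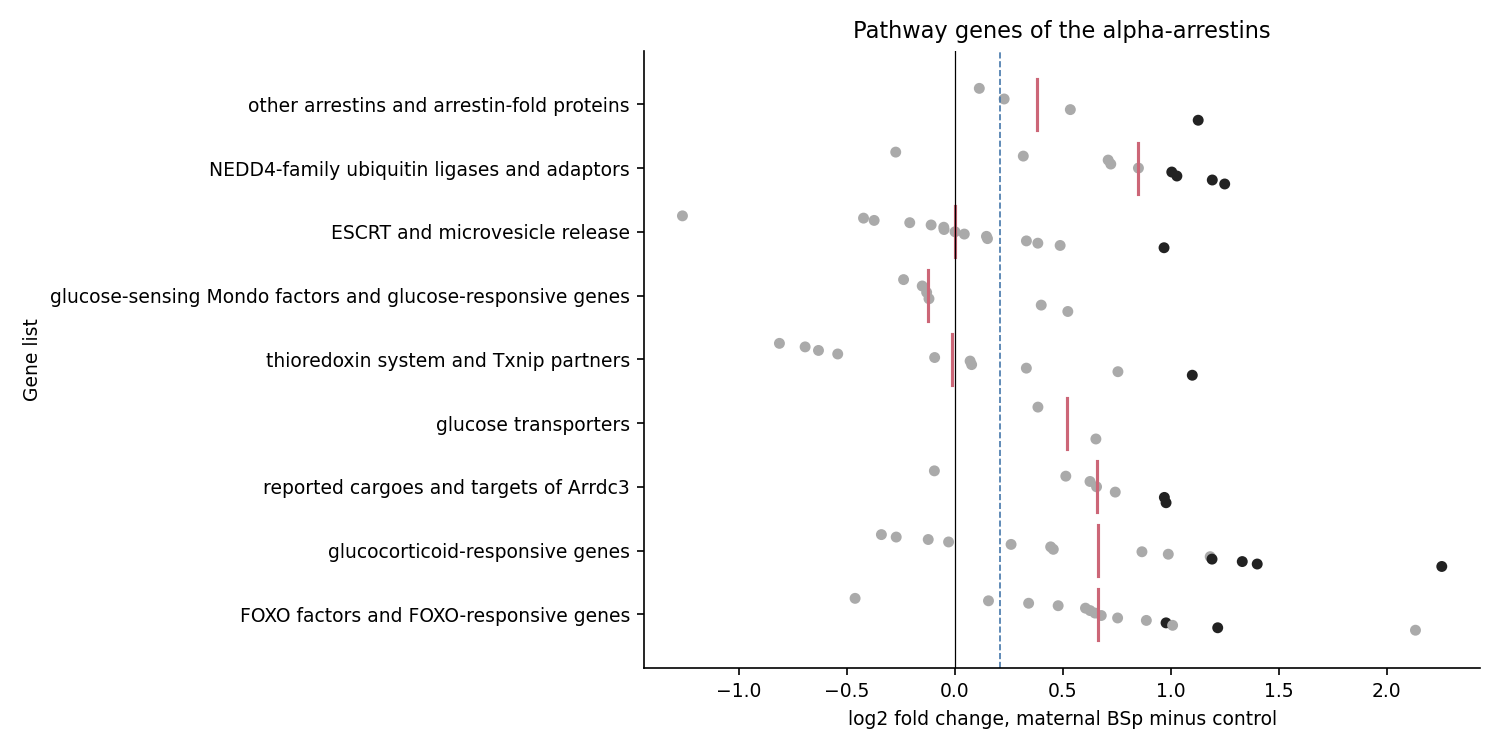
Log2 fold change (maternal BSp minus control) of the tested genes of 9 lists, 1 point per gene, black where the unadjusted limma p was under 0.05; 0 genes passed after adjustment. Red bars are list medians and the dashed line is the median of all tested genes, 0.21.

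The proteins reported as cargoes or targets of Arrdc3 were measured as RNA only. Of 10 listed genes 7 were tested, 6 were higher in maternal BSp, 0 passed and 2 had an unadjusted p under 0.05, Insr and Itga6. With the same limma fit 1101 of all 9870 genes had such a p, 791 higher and 310 lower. The groups lay apart and higher for 4 of the 7, and for 23.8% of all tested genes. Itgb4, which encodes integrin beta 4, was measured at 64 and 62.3 in control 1 and 2, and at 41.1, 182 and 27.0 in maternal BSp 1, 2 and 3. It was lower than both controls in maternal BSp 1 and 3 and higher in maternal BSp 2, so its groups overlapped where those of Arrdc3 did not. Itga6, its integrin partner, was at 59 and 40.8 against 86.6, 82.0 and 129. Insr, the insulin receptor, was at 46 and 22.6 against 56.9, 70.1 and 67.7, and F2r, the thrombin receptor, at 8 and 6.23 against 11.6, 12.3 and 13.6. For these 3 genes every maternal BSp value was above both controls as deposited, but the groups of Itga6 overlapped with median of ratios scaling. Yap1, the Hippo pathway effector, followed the same order at 111 ± 11.8 (SD, n = 2) and 172 ± 13.2 (SD, n = 3).

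Thioredoxin system genes, the partners of Txnip, were split, with 5 of 10 tested genes higher and 5 lower as deposited, 3 or 4 higher under the other scalings, and 0 passing. Txn1, the thioredoxin that Txnip binds, was measured at 932 and 1347 in control 1 and 2, and at 797, 558 and 746 in maternal BSp. Prdx1, the peroxiredoxin that thioredoxin reduces, was at 1927 and 2429 against 1225, 1214 and 1255. Both had every maternal BSp value below the controls, with log2 differences of -0.69 (SE 0.38) and -0.81 (SE 0.37). Txnrd1, the cytosolic thioredoxin reductase, lay the other way at 46 and 45.3 against 57.4, 97.7 and 83.6, and so did Ddit4, an inhibitor of mTORC1 that binds Txnip, at 58.2 ± 13.9 (SD, n = 2) and 127 ± 36.0 (SD, n = 3). Of 9 listed glucose transporters 2 were tested, both higher and neither passing. Slc2a1, the glucose transporter GLUT1 that Txnip internalises, was at 182 and 242 against 447, 245 and 330. The maternal BSp values all exceeded the controls as deposited, but with upper quartile, median of ratios and TMM scaling maternal BSp 2, the library with the most Txnip, was at 193 to 201 and control 2 at 255 to 262, so the groups overlapped.

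Of the Mondo factors and glucose-responsive genes, 6 of 10 were tested, 2 were higher, 4 lower and 0 passed. Mlxip, which encodes MondoA, was measured at 39 and 35.7 in control 1 and 2, and at 47.2, 128 and 25.8 in maternal BSp 1, 2 and 3. Mlx, its obligate partner, was at 40 and 39.1 against 28.0, 69.4 and 23.8. Both were highest in maternal BSp 2 and lowest in maternal BSp 3. Txnip and Arrdc4 also had their maximum in maternal BSp 2, but so had Arrdc1, Arrdc3 and 45.8% of all tested genes. Hk2, a hexokinase upstream of MondoA activity, was at 39.2 ± 0.248 (SD, n = 2) and 33.9 ± 9.08 (SD, n = 3). It was also highest in maternal BSp 2, but only slightly, at 41.2 against 39.4 in control 2. With upper quartile, median of ratios and TMM scaling its maternal BSp values were all below the controls.

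Glucocorticoid-responsive genes were listed because Txnip and Arrdc family genes respond to steroid in other tissues. Of 14 tested, 10 were higher and 4 lower in maternal BSp, and 0 passed. With limma 4 had an unadjusted p under 0.05, all higher. Of all 9870 genes tested 1101 had such a p, 791 higher and 310 lower. The median was 0.66, beside 0.21 for all tested genes. In maternal BSp 2, 9 of the 14 (64.3%) had their highest value, against 45.8% of all. Without that library 8 of 13 tested were higher, with a median of 0.51 beside 0.08. Tsc22d3, which encodes the glucocorticoid-induced leucine zipper, was measured at 38 and 16.4 in control 1 and 2, and at 46.3, 539 and 74.3 in maternal BSp 1, 2 and 3. Klf9 was at 11 and 3.96 against 5.76, 50.4 and 2.33. Both had their maximum in maternal BSp 2 and were higher in control 1 than in control 2, as was Txnip. Unlike Txnip, Tsc22d3 was lower in control 1 than in every maternal BSp library. Its groups did not overlap as deposited or with upper quartile, median of ratios and TMM scaling. Pdk4, a kinase that restrains pyruvate oxidation and was named after its values were seen, was at 13 and 13.3 against 6.02, 118 and 7.78, with the same high and low libraries as Arrdc4. Nr3c1, the glucocorticoid receptor, was instead highest in maternal BSp 1, at 233, against 99.6 and 96.1 in maternal BSp 2 and 3 and 69 and 62.0 in the controls.

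**Figure D5:**
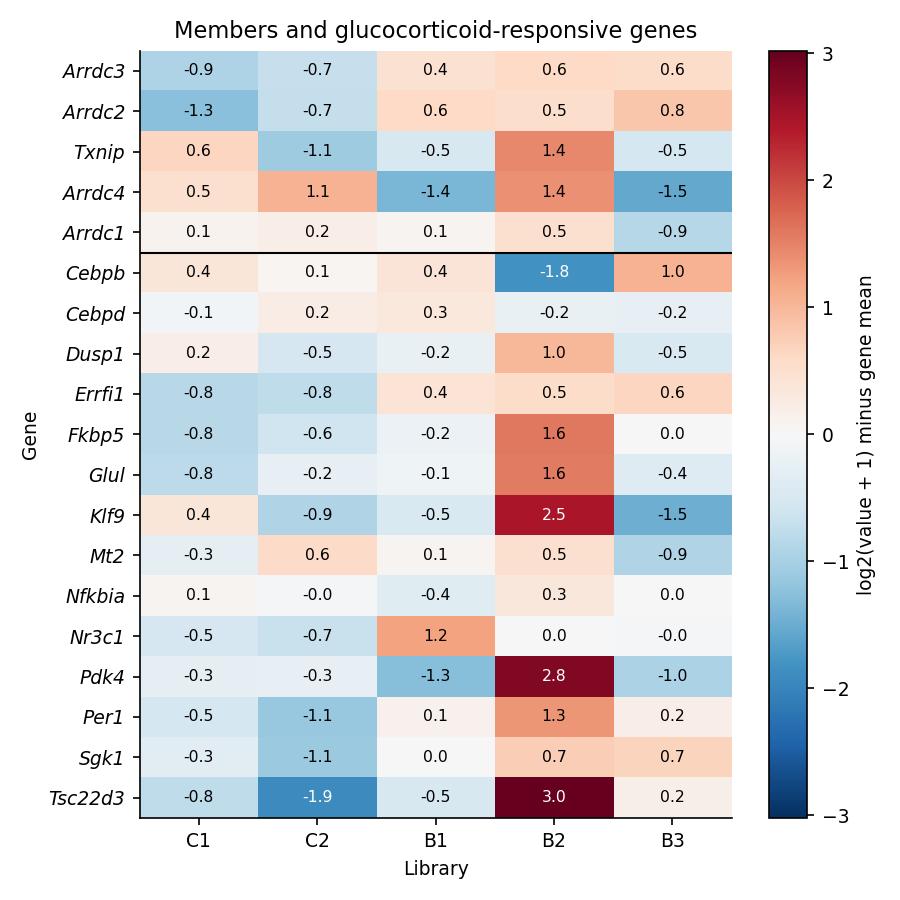
Log2(value + 1) minus the gene's mean over the 5 libraries, for the 5 alpha-arrestins above the line and the 14 tested glucocorticoid-responsive genes below it. Txnip, Arrdc4, Tsc22d3, Klf9 and Pdk4 are at their highest in B2, as are 45.8% of all tested genes. Arrdc3 is also highest in B2 but is nearly even over B1 to B3, at 0.45, 0.60 and 0.56.

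FOXO factors and their responsive genes, a list kept because Txnip is a known FOXO target, had 13 of 14 tested genes higher in maternal BSp and 1 lower, with a median of 0.66 beside 0.21 for all tested genes. None passed, 2 had an unadjusted p under 0.05, as did 1101 of all 9870, and the count of higher genes was 12 or 13 under the other scalings and 10 of 13 without maternal BSp 2. In that library 9 of the 14 (64.3%) had their highest value, as did 45.8% of all tested genes. Every maternal BSp value was above both controls for 3 of the 14, and for 23.8% of all tested genes. Foxo1 was measured at 49 and 32.8 in control 1 and 2, and at 52.3, 123 and 27.4 in maternal BSp 1, 2 and 3. Its groups overlapped and its maximum was in maternal BSp 2. Cdkn1b, a cell cycle inhibitor under FOXO control, was at 94 and 128 against 220, 387 and 128, with maternal BSp 3 level with control 2, and its groups overlapped except with upper quartile scaling.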

How the data were processed

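RNA was measured in 5 mammary tumour libraries grouped and numbered by their description labels. Per the file headers, the deposited table holds 1 column of normalised signal per library. Each signal column was scaled by the authors to a sum of 1106813, and 100% of values were whole multiples of 1 read (tolerance 0.1 read), which recovered the reads. FastQC, Trim Galore, cutadapt, STAR and DESeq with GRCm38 and mm10 are named in the submitters' processing notes. The sources used here give no versions, counting tool or strand setting. A second table holds the authors' group means and p-values per the file headers.

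The members, gene lists and tests were chosen with earlier results of these data known. As the table holds normalised values, limma 3.58.1 (R 4.3.3, trend, no covariate) was fitted on log2(value + 1) to 9870 genes whose mean reached 10, and p-values were adjusted by Benjamini-Hochberg at a threshold of 0.05. Log2 differences are on that scale, which understates those of low genes. Exact 95% Poisson and binomial intervals cover counting error only. Positions and exon lengths are from GENCODE M21 (GRCm38; 35529 of 38918 features matched) and promoters from RefSeq on GRCm38.p6. Alternatives were other filters, pseudocounts and scalings, each library left out, a replicate block, array weights, and edgeR 4.0.16 and DESeq2 1.42.0 on recovered reads. The limma step was tested on simulated data. The genes named are the 5 members, 36 list genes picked for their role (some are not reported here), the 5 genes nearest in pattern to Arrdc3 and to Txnip, and any list gene past the threshold. Pdk4 was added after its values were seen. Protein sequences were not used here.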

Additional observations from a re-analysis of the deposited data

How the results depend on the processing

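The count of genes called was 0 by limma, 23 with the replicate block, 699 with array weights and 100 by DESeq2, and 0 to 1 with a library left out. The 1 gene, without maternal BSp 3, was Gm26917. At an unadjusted p under 0.05 the split of higher to lower genes turned from 791 and 310 to 451 and 606 with median of ratios scaling. Genes without overlap numbered 3257, 1577 at a mean of at least 50, and 4144 to 5030 with a library left out. The cause of these differences was not tested, except that fewer genes or libraries enter the filter and leave-one-out counts. The log2 difference of Arrdc3 was 1.21 with upper quartile or quantile scaling, 1.14 with median of ratios, 1.16 with TMM, 1.17 in edgeR, 1.14 in DESeq2, 0.91 with length and GC trends removed, and 1.23 to 1.46 with a library left out. That of Arrdc2 was 1.00 at a pseudocount of 5 and 1.37 to 1.92 with a library left out. With a library left out, Txnip ranged from -0.49 to 1.22, Arrdc4 from -2.23 to -0.78, Arrdc1 from -0.55 to 0.13, and the log2 ratio of Arrdc4 to Txnip from -2.89 to -0.58, of Arrdc3 to Txnip from 0.01 to 1.97, of Arrdc3 to Arrdc1 from 1.21 to 1.88 and of Arrdc3 to Arrdc4 from 2.18 to 3.68. Txnip was above Arrdc3 per kilobase in 3 libraries over the longest transcript. The replicate block drops maternal BSp 3, which has no control of its number; the numbers are shared in name only (r = 0.094 and -0.092 for replicates 1 and 2), and the block put Arrdc1 at 0.13 and Arrdc4 at -0.78. Arrdc2 has no value in edgeR, DESeq2, at a mean of at least 50 or with the length and GC trend removed, nor has Arrdc4 at a mean of at least 50. The depth of the controls limits Arrdc2 most, with 2 and 12 reads.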

Other observations

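Summing the reads of each group before dividing by the summed totals gives most weight to maternal BSp 2. By that measure the ratio of maternal BSp to control was 3.08 for Txnip (exact 95% counting interval 2.79 to 3.41), above the 2.53 of Arrdc3 (2.26 to 2.83). The ratio of group means, which weights libraries equally, was 1.36 for Txnip and 2.56 for Arrdc3, so the order of these genes depends on the weighting. For Arrdc4 the summed ratio was 1.03 (0.904 to 1.18) and the ratio of means 0.626.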
